A study of Mus musculus with 6 samples.

Results

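Potassium channel genes, the mouse genes whose symbols start with Kcn, were followed in 2 populations of bladder cells sorted from newborn mice. The members were all probe sets whose single annotated gene symbol starts with Kcn, and there were 167 of them, for 84 of 18193 named genes, among 45037 probe sets on the array. All cells came from male FVB/N mice on postnatal day 2 that carried both an SMGA/EGFP and an SMAA/EYFP transgene. SMGA and SMAA stand for smooth muscle gamma and alpha actin, whose own genes are Actg2 and Acta2. Cells that were EGFP positive and EYFP negative (single-positive, 3 arrays) were set against cells that were positive for both reporters (double-positive, 3 arrays). The labels assign both populations to the detrusor, the muscle of the bladder wall, and say that samples were not pooled. They do not say whether arrays within a group stand for different animals, and every p-value therefore rests on a spread between samples that may be technical. Both reporters mark cells only by promoter activity of a transgene, and bulk RNA cannot tell fewer cells of a type from less RNA per cell.

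Potassium channels let potassium ions leave the cell and thereby hold the membrane voltage low or bring it back after excitation. Voltage-gated channels (Kv) open on depolarization, calcium-activated channels open when intracellular calcium rises, inward rectifiers pass current best near the resting voltage, and two-pore channels carry background current. Pore-forming subunits assemble with auxiliary subunits that change gating or surface expression. In detrusor muscle the large-conductance calcium-activated channel (BK), the small-conductance channels (SK), Kv channels, the ATP-sensitive inward rectifier and stretch-sensitive two-pore channels are known to restrain contraction.

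The 2 populations differed in 8 potassium channel probe sets, of 8 genes. Of these genes, 6 encode voltage-gated pore subunits, a class that held 20 of the 54 genes tested. For 5 of the 6, only 1 group mean was above the filter described below. These counts therefore cannot show whether calls gather in that class. Kcna1, Kcna2, Kcna5 and Kcnf1 (all Kv pore subunits) and Kcnmb1 (the smooth muscle accessory subunit of BK) fell in the double-positive arrays. Kcnc2 and Kcnq3 (Kv pore subunits) and Kcnk2 (a stretch-sensitive two-pore channel) rose. Groups were compared with limma over all probe sets that passed a filter on dim signals, and "rose" or "fell" is used only where the adjusted p was under 0.05. Of the 167 members, 74 probe sets of 54 genes passed the filter and 93 did not. Among the 74 members, 3 rose and 5 fell. Over all 27022 probe sets tested the same rule called 1.01% higher and 2.42% lower, or 3.42% in either direction. All fold changes set double-positive against single-positive signal, in log2 after adding an offset of 25.042 to each signal, and this understates changes of dim probe sets.

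The filter bears on these counts. It kept a probe set when its mean over all 6 arrays exceeded 6.82 on the log2 scale, and 17 of the 74 members had only 1 of their 2 group means above that level. Of the 8 members called, 5 were of this kind (Kcna1, Kcna2, Kcnf1, Kcnc2 and Kcnq3), all of them voltage-gated pore subunits. A probe set that passes through 1 group alone has to differ between the groups. Kcna5, Kcnmb1 and Kcnk2 had both group means above it. With no filter all 167 members were tested, and 7 of the 8 were called, with Kcnmb1 missing the threshold (adjusted p = 0.0553 by limma) and no further member called. These were 3 higher and 4 lower, beside 212 higher and 481 lower of all 45037 probe sets in that fit. Without overlap between groups, 7 of the 74 lay above and 9 below in the double-positive arrays, beside 8.57% and 10.1% of all tested probe sets. These shares were close to the background and are no result about the channels. The median log2 fold change was -0.06 over the 74 members and 0.02 over all tested probe sets.

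**Figure D1:**
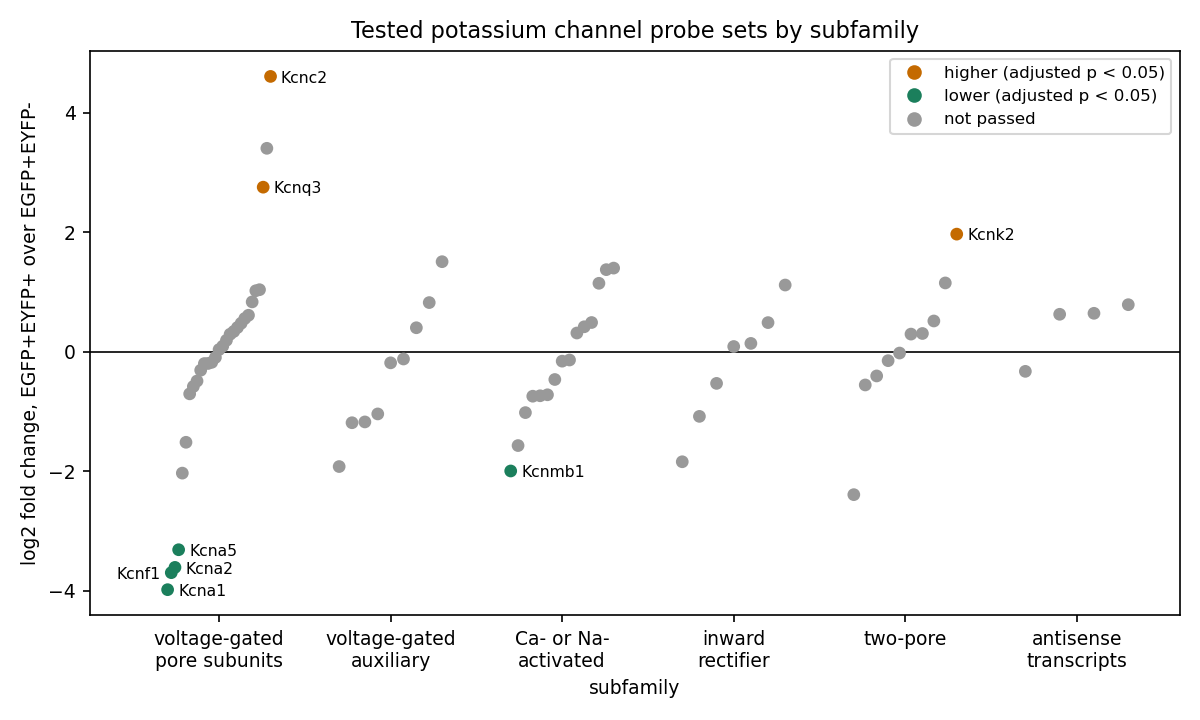
Log2 fold change (double-positive over single-positive) of the 74 tested Kcn probe sets, 1 point each, sorted by value within each subfamily; colours mark the 3 higher and 5 lower probe sets. Voltage-gated pore subunits span -3.98 to 4.61, while no voltage-gated auxiliary subunit or inward rectifier passed the threshold.

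Facts of the whole arrays bear on how these values are read. Median signal per array ranged from 147 to 200, in arbitrary units. Actg2, the gene behind the EGFP reporter, was lower in the double-positive arrays (log2 fold change -2.54, SE 0.23, adjusted p = 0.00101 by limma). Of the 3 Acta2 probe sets, the brightest had a log2 fold change of -0.07 and the next -4.31 (adjusted p = 0.000483 by limma); the third had -3.07 and did not pass. Of 10 smooth muscle markers, 8 fell, with a summed signal of 241285 to 311039 in single-positive and 76855 to 112022 in double-positive arrays. Of 13 leukocyte markers tested, 12 fell (summed signal 92132 to 130641 against 12536 to 20443). In the urothelium list 6 of 13 fell (21892 to 38760 against 4800 to 8591), and in the endothelium list 6 of 11 (38843 to 48306 against 6836 to 11467). In the Schwann cell and nerve list 5 of 10 tested fell (29856 to 32862 against 21639 to 27501), with Sox10, the defining factor of Schwann cells, among those that did not pass. In the pericyte list 2 of 9 fell (64901 to 69803 against 27231 to 47757). That list holds Kcnj8, itself a member, and its partner Abcc9. One of the 2 that fell is Des, which is also in the smooth muscle list. In the interstitial cell and fibroblast list 0 of 10 passed by limma (312456 to 371241 against 323257 to 458295), and 5 had an unadjusted p under 0.05. Of these 5, Kit had a log2 fold change of -2.38, and Pdgfra, Ano1, Col1a1 and Thy1 had values above 0. Several members are also expressed by such cells, and the part of these markers in the channel results was not tested.

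Promoter windows are shown for the called genes that the sequence table holds, as sequence context for the members that differed. RefSeq windows of build GRCm38.p6, running from 250 bases before to 50 bases after a start site, were found for 64 of the 84 Kcn genes and for 6 of the 8 called ones. Where a gene had several start sites, the most upstream window is printed. Capitals mark GGGCGG (the GC box bound by Sp1 factors) and CTTTGA (a core motif of TCF/LEF factors, the nuclear effectors of Wnt signals), searched on both strands.
Kcna2 (chr3:107101317-107101616, plus strand): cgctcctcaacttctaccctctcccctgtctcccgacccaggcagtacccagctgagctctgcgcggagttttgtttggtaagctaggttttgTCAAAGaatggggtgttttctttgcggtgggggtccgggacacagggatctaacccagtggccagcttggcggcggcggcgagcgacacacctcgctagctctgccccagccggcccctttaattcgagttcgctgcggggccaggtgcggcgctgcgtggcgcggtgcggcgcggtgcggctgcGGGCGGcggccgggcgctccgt
Kcna5 (chr6:126535506-126535805, minus strand): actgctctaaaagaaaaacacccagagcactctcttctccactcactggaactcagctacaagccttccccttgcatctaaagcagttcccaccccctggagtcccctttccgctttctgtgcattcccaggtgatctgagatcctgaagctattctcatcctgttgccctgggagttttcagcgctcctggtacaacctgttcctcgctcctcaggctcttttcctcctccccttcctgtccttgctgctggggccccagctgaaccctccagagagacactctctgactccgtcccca
Kcnf1 (chr12:17176839-17177138, minus strand): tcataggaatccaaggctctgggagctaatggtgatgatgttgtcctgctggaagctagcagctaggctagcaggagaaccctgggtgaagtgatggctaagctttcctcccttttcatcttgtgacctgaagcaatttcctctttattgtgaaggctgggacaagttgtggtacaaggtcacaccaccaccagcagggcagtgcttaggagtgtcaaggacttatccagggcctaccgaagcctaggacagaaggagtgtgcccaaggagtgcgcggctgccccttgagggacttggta
Kcnmb1 (chr11:33962763-33963062, plus strand): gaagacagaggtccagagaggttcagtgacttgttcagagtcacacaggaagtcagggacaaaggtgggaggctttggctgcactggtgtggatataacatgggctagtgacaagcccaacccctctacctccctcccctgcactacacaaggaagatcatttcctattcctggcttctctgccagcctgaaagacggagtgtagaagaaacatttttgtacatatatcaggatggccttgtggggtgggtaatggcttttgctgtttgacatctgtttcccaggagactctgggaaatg
Kcnc2 (chr10:112269767-112270066, plus strand): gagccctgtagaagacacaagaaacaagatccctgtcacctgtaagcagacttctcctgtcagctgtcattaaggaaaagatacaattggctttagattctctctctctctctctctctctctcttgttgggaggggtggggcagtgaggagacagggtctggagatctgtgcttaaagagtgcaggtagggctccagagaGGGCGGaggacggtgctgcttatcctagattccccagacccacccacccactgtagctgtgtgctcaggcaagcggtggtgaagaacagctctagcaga
Kcnk2 (chr1:189402224-189402523, minus strand): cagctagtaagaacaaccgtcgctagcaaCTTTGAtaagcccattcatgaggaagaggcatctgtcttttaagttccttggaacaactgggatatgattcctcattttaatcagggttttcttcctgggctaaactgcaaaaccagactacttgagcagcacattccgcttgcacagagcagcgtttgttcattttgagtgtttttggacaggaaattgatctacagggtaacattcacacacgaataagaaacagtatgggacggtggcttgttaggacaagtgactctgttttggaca
A CArG box, the site bound by serum response factor in many contractile genes, was in no window of the 64 Kcn genes and in that of 1.81% of all 27025 genes of the table. GGGCGG was found for 64.1% of the Kcn genes and 38.2% of all genes, and CTTTGA for 10.9% and 18.2%. Among the printed windows, Kcna2 held both motifs, Kcnc2 held GGGCGG, Kcnk2 held CTTTGA, and those of Kcna5, Kcnf1 and Kcnmb1 held neither. Another window of Kcnk2, not printed, held GGGCGG. These matches describe letters in short windows and say nothing of binding.

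Among the voltage-gated pore subunits, 65 probe sets of 31 genes were on the array and 29 of 20 genes were tested. Of these 29, 4 fell, 2 rose and 23 did not pass. Of the 4 that fell, 3 belong to the Kcna genes, the Shaker-type channels that open at modest depolarization and shorten or prevent repetitive firing. Other tested probe sets of Kcna1, Kcna6 and Kcna7 did not pass.

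Kcna1 (probe set 1455785_at) gave signals of 611, 1178 and 985 in the single-positive arrays and 2.88, 62.6 and 55.0 in the double-positive arrays. The lowest single-positive value lay far above every double-positive value. The log2 fold change was -3.98 (SE 0.54, adjusted p = 0.00493 by limma). Kcna1 has 3 other probe sets, of which the 1 that was tested had -0.70 (adjusted p = 0.738 by limma), and the differences of the other two were -0.64 and 0.18. The call therefore rests on 1 of 4 probe sets.

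Kcna2 (1440759_at), which can co-assemble with Kcna1 and lies along axons of myelinated nerves, gave 444, 384 and 482 in the single-positive and 1.35, 21.0 and 19.0 in the double-positive arrays. All double-positive signals were below the offset, so the size of the fold depends on it. The log2 fold change was -3.61 (SE 0.43, adjusted p = 0.00267 by limma), and it ranged from -3.87 with array weights to -2.30 with a larger offset, and with the smaller offset it was under the filter and not tested. Its 3 other probe sets were too dim to test, with differences of -0.35 to 0.12. When any 1 single-positive array was left out, the mean of 1440759_at fell under the filter and it was not tested.

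Kcna5 (1417680_at), a channel known from the smooth muscle of vessels and from atrial myocytes, gave 1199, 1204 and 1338 in the single-positive arrays. The double-positive arrays gave 48.3, 51.1 and 348, and array 3 was the highest of them. The groups did not overlap, and the log2 fold change was -3.31 (SE 0.62, adjusted p = 0.0214 by limma). This call was lost without any 1 of the 3 single-positive arrays (adjusted p = 0.0759, 0.0893 and 0.0930 without arrays 1, 2 and 3) and without double-positive array 1 (0.0690) or 2 (0.0624). Over the 6 fits that each left out 1 array, the value lay between -4.09 and -2.91.

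Kcna1, Kcna5 and Kcna6 are neighbours in the RefSeq gene order of chromosome 6, and Kcna2 lies between Kcna3 and Kcna10 on chromosome 3. Kcna6 gave no single picture. Its probe set 1456954_at had a log2 fold change of -1.52 (adjusted p = 0.382 by limma) and 1421568_at had 0.29 (0.876). Kcna3, a channel of lymphocytes and macrophages, had 1 probe set that was not tested, with signals of 23.4 to 110 over all 6 arrays.

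Kcnf1 (1454768_at), which forms no channel alone and modifies other Kv subunits, gave 697, 490 and 704 in the single-positive arrays. In the double-positive arrays it gave 11.1, 2.20 and 101. The log2 fold change was -3.70 (SE 0.60, adjusted p = 0.0109 by limma), and the groups were well apart. Without single-positive array 3 the adjusted p was 0.0577. A second probe set was not tested and had a difference of -0.85. Kcng1, another modifier subunit, had a lower value as well, 573, 1051 and 1151 against 23.7, 557 and 366, but did not pass (log2 fold change -2.03, SE 0.83, adjusted p = 0.319 by limma), and without double-positive array 1 its value was -0.94.

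Kcnc2 (1455258_at), a Kv3 channel that lets neurons fire at high rates, was the member of greatest positive change. Its signal was 2.79, 7.19 and 25.4 in the single-positive arrays and 885, 861 and 788 in the double-positive arrays. The double-positive arrays agreed closely with each other, and 2 of the 3 single-positive signals were under the offset. The log2 fold change was 4.61 (SE 0.42, adjusted p = 0.00101 by limma), and it ranged from 3.16 with the largest offset to 5.87 with the smallest. It is the only probe set of the gene, and it passed without any 1 of the 6 arrays.

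Kcnq3, a pore subunit of M-type channels, which open near the resting voltage of neurons, had higher values on both of its probe sets. On 1458421_at the signals were 51.9, 76.7 and 82.6 in single-positive and 423, 667 and 808 in double-positive arrays (log2 fold change 2.75, SE 0.42, adjusted p = 0.00834 by limma). On 1435957_at they were 26.4, 464 and 19.8 against 558, 1813 and 1222, where single-positive array 2 stood above the other two of its group. That probe set did not pass (log2 fold change 3.40, SE 0.88, adjusted p = 0.0815 by limma), while without single-positive array 2 it had 4.52 (adjusted p = 0.0124). Fitting 1 probe set per gene, which uses 1435957_at for Kcnq3, gave an adjusted p of 0.0386.

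**Figure D2:**
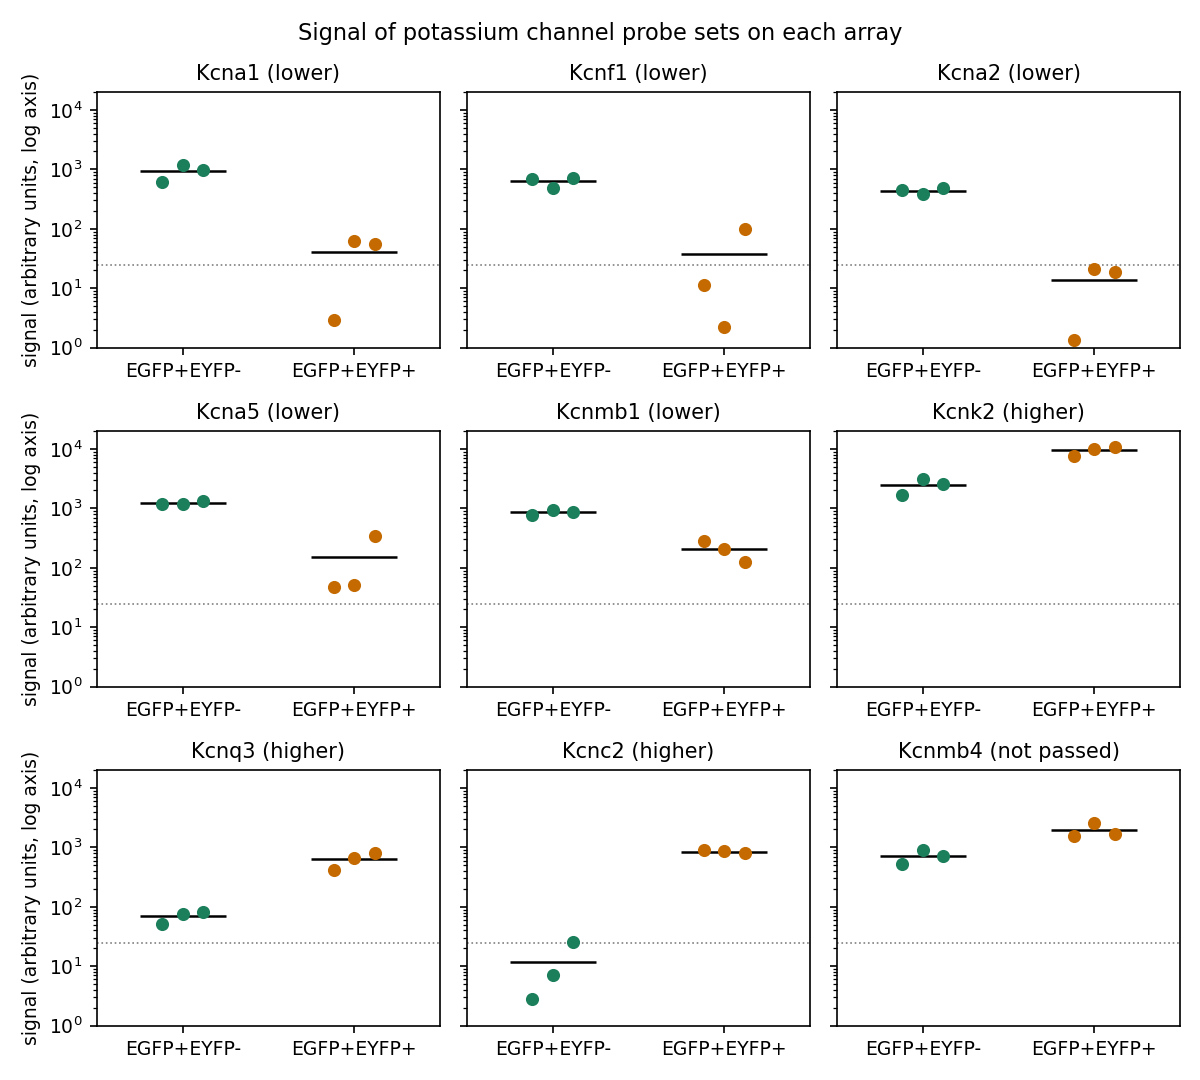
Signal on each array (points; arbitrary units, log axis) with the group mean (bar) for the 8 called probe sets (1458421_at for Kcnq3, 1421400_at for Kcnmb1) and Kcnmb4; the dotted line is the offset of 25.042. In each of the 9 panels the 3 single-positive and 3 double-positive arrays do not overlap.

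The remaining Kv pore subunits did not pass. Kcnd3, an A-type channel of transient outward current, gave 8197, 10007 and 10198 in single-positive and 6187, 4796 and 10144 in double-positive arrays on 1435720_at. These groups overlapped, with a log2 fold change of -0.49 (95% interval of the fit -1.12 to 0.14). Its other tested probe set had -0.31. Kcnd1, a related A-type channel, had 0.34 and 0.56 on its 2 tested probe sets. Kcnq5, an M-type channel found in smooth muscle, gave 2349, 2538 and 2387 against 1914, 1642 and 3694 on 1457587_at, a log2 fold change of -0.10 (95% interval -0.84 to 0.65), and its other tested probe set had -0.20. Kcnh2, the channel of the cardiac rapid delayed rectifier, had -0.58 with a wide interval of -1.99 to 0.83. Kcnq1 was too dim to test, with signals of 13.0 to 98.8.

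Among 24 probe sets of auxiliary Kv subunits, 9 of 7 genes were tested, and none passed with limma (2 had an unadjusted p under 0.05). Kcne4, an inhibitory partner of several Kv channels and of BK, was measured at nearly equal signals, 8240, 7291 and 6984 in single-positive and 7734, 6168 and 6824 in double-positive arrays. Its log2 fold change was -0.12, and the 95% interval of the fit was -0.56 to 0.31. Kcne1l (also called Kcne5), a single-pass partner of Kv channels, gave 127, 238 and 304 against 584, 802 and 575. The groups did not overlap, but the log2 fold change of 1.51 (SE 0.42) did not pass (adjusted p = 0.108 by limma). Kcnip4, a calcium-binding partner of A-type channels, had -1.92 (SE 0.72, adjusted p = 0.257 by limma) on 1437631_at and -1.19 on its other tested probe set, with double-positive array 3 inside the single-positive range.

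The calcium- and sodium-activated group held 21 probe sets of 11 genes, of which 15 of 9 genes were tested. The members of the BK channel went in different directions by value, and 1 of them passed. Kcnmb1, the beta1 subunit that raises the calcium sensitivity of BK in smooth muscle, gave 771, 928 and 860 in the single-positive and 282, 205 and 125 in the double-positive arrays on 1421400_at. The log2 fold change was -2.00 (SE 0.40, adjusted p = 0.0278 by limma). The second probe set, 1421401_at, gave 249, 496 and 357 against 38.8, 129 and 186 (log2 fold change -1.57, SE 0.54, adjusted p = 0.206 by limma). Neither probe set overlapped between groups. The call on 1421400_at was lost with no filter and with a block for replicate number. It was also lost without single-positive array 1 (adjusted p = 0.0926), 2 (0.127) or 3 (0.118) and without double-positive array 2 (0.0570). The value of 1421400_at stayed between -2.24 and -1.72 without any 1 array. Smooth muscle markers fell in the same arrays, as given above, and their part in this was not tested.

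Kcnmb4, the beta4 subunit of BK known mainly from neurons, had the opposite sign. It gave 520, 905 and 726 in single-positive and 1551, 2587 and 1674 in double-positive arrays, with no overlap. Kcnmb4 had a log2 fold change of 1.40 (SE 0.35, 95% interval 0.61 to 2.18), and the adjusted p of 0.0698 by limma missed the threshold. It passed when 1 probe set per gene was fitted (0.0386), a fit that called 1.98% of 13464 genes higher and 4.38% lower, and with a stricter filter (0.0447). A difference between the changes of Kcnmb1 and Kcnmb4 was not tested.

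Kcnma1, the BK pore itself, did not pass on any of its 3 tested probe sets. On 1428948_at it gave 1546, 2175 and 2140 in single-positive and 863, 539 and 1770 in double-positive arrays. Double-positive array 3 lay inside the single-positive range, and the log2 fold change was -1.02 (SE 0.43, 95% interval -1.99 to -0.05, adjusted p = 0.337 by limma). The other tested probe sets had -0.74 and -0.46. These 2 values turned positive when 1 array was left out (0.16 for 1424848_at without single-positive array 3 and 0.29 for 1425987_a_at without double-positive array 3).

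The SK channels, which shape the after-potential of detrusor cells, gave no call. Kcnn1 had a log2 fold change of 1.37 on 1419617_at (95% interval 0.09 to 2.66, adjusted p = 0.325 by limma). Its groups overlapped there, and its other tested probe set, 1449536_at, had 0.31. Kcnn2 had signals of 366, 230 and 743 against 194, 356 and 180, with a log2 fold change of -0.72 (95% interval -1.86 to 0.42). Kcnn3, the SK3 channel, was under the filter, with 165, 17.0 and 14.6 against 122, 220 and 11.4. Kcnn4, the intermediate-conductance channel of leukocytes and epithelia, was also under it, with 98.6, 119 and 105 against 24.3, 30.7 and 85.6 on 1421038_a_at. Those groups did not overlap, while on its other probe set, 1435945_a_at, they did (8.60, 75.2 and 163 against 9.80, 15.3 and 22.7). The leukocyte markers given above were lower in the same arrays, and their part in this was not tested.

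**Figure D3:**
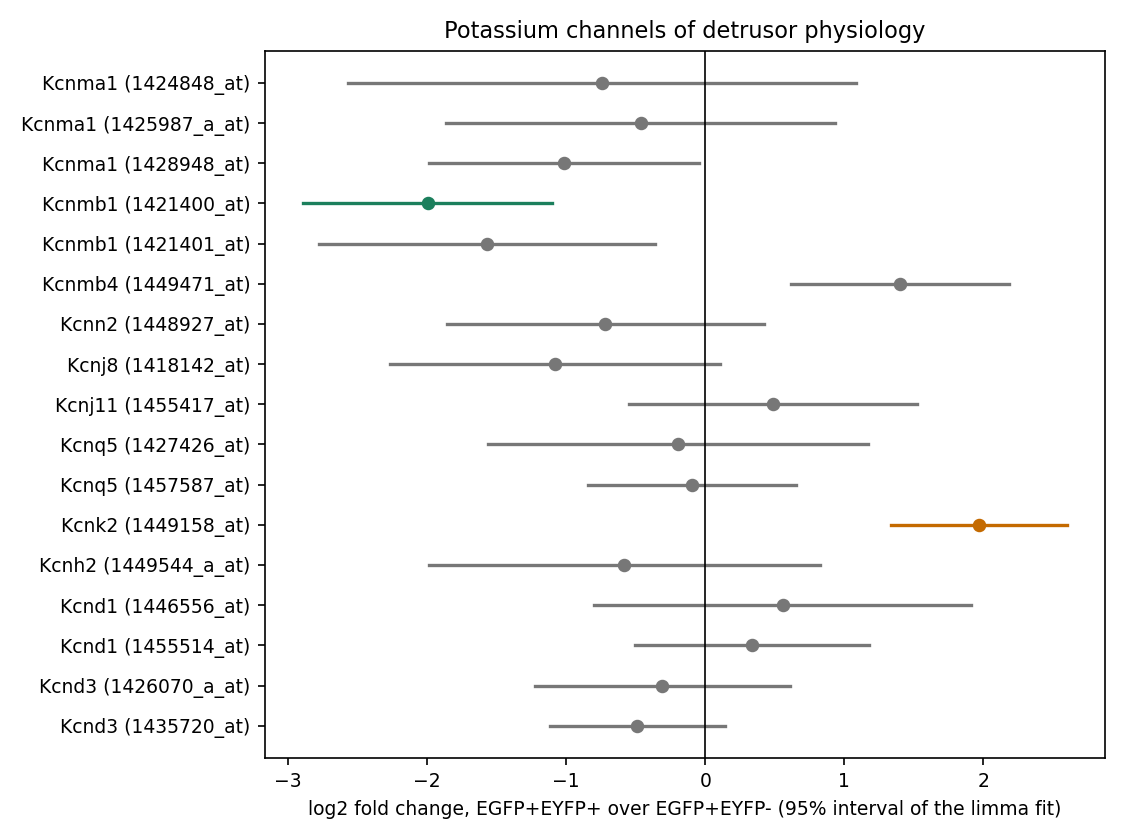
Log2 fold change (points) and 95% interval of the limma fit (lines) for each tested probe set of channels known from detrusor physiology, double-positive over single-positive; colours mark calls. Kcnmb1 (1421400_at) and Kcnk2 are the 2 probe sets past the threshold, and among the others only 1 probe set each of Kcnma1, Kcnmb1 and Kcnmb4 has an interval that leaves out 0.

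Among the inward rectifiers, 7 of 31 probe sets were tested, 1 for each of 7 genes, and none passed with limma (1 had an unadjusted p under 0.05). Kcnj8, the pore of the ATP-sensitive channel in smooth muscle and pericytes, gave 2503, 3547 and 4367 in single-positive and 673, 3458 and 1696 in double-positive arrays. The double-positive arrays spread over a wide range, and the log2 fold change of -1.08 had a 95% interval of -2.27 to 0.10 (adjusted p = 0.426 by limma). Without double-positive array 1 it was -0.48. Abcc9, the sulfonylurea receptor that completes this channel, had a log2 fold change of -1.25 (SE 0.35, adjusted p = 0.113 by limma) with groups that did not overlap. Kcnj11, the other ATP-sensitive pore, had 0.49 (95% interval -0.55 to 1.53) on 1455417_at. Its other probe set, 1450515_at, was not tested and had a difference of -0.89.

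Kcnj10, a potassium-buffering channel of glia, gave 174, 222 and 353 against 14.6, 114 and 48.0. The groups did not overlap, but the log2 fold change of -1.84 (SE 0.55) missed the threshold (adjusted p = 0.135 by limma) and passed only with array weights (0.0289). Of the Schwann cell and nerve markers, Erbb3, Mbp, L1cam, Snap25 and Uchl1 fell in the same arrays and the other 5 tested did not pass. Of those 5, Ncam1 (0.49) and Sox10 (0.25) had log2 fold changes above 0, and S100b (-0.40), Stmn2 (-2.35) and Elavl4 (-2.15) below 0. Snap25, a synaptic protein, fell from 670 ± 53.1 to 14.7 ± 13.0 (SD, n = 3), below the offset. Their part in the values of Kcnj10, Kcna1 and Kcna2 was not tested. Kcnj2, the classical inward rectifier of vessels and macrophages, was not tested, with signals of 1.15 to 42.5 over all arrays.

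Of 18 two-pore probe sets, 10 of 9 genes were tested, 1 rose and 9 did not pass. Kcnk2, a background channel opened by stretch and lipids and known in bladder muscle, gave 1652, 3062 and 2593 in the single-positive and 7599, 9957 and 10641 in the double-positive arrays. The groups were far apart. Kcnk2 rose by 1.97 in log2 (SE 0.28, adjusted p = 0.00600 by limma). It was called under all 11 other settings and without any 1 of the 6 arrays, where it ranged from 1.71 to 2.15. Both of its group means were far above the filter.

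Kcnk3, an acid-sensitive background channel of vascular smooth muscle, had the opposite sign, 539, 643 and 503 against 16.0, 372 and 59.3. Its log2 fold change of -2.39 (SE 0.74) did not pass (adjusted p = 0.152 by limma). Double-positive array 2 stood above the other two of its group, and without it the value was -3.31 (adjusted p = 0.0127). Its 2 other probe sets were not tested. Kcnk5, a pH-sensitive channel of epithelia, gave 379, 49.6 and 262 against 386, 708 and 290 (log2 fold change 1.15, adjusted p = 0.525 by limma), with groups that overlapped.

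**Figure D4:**
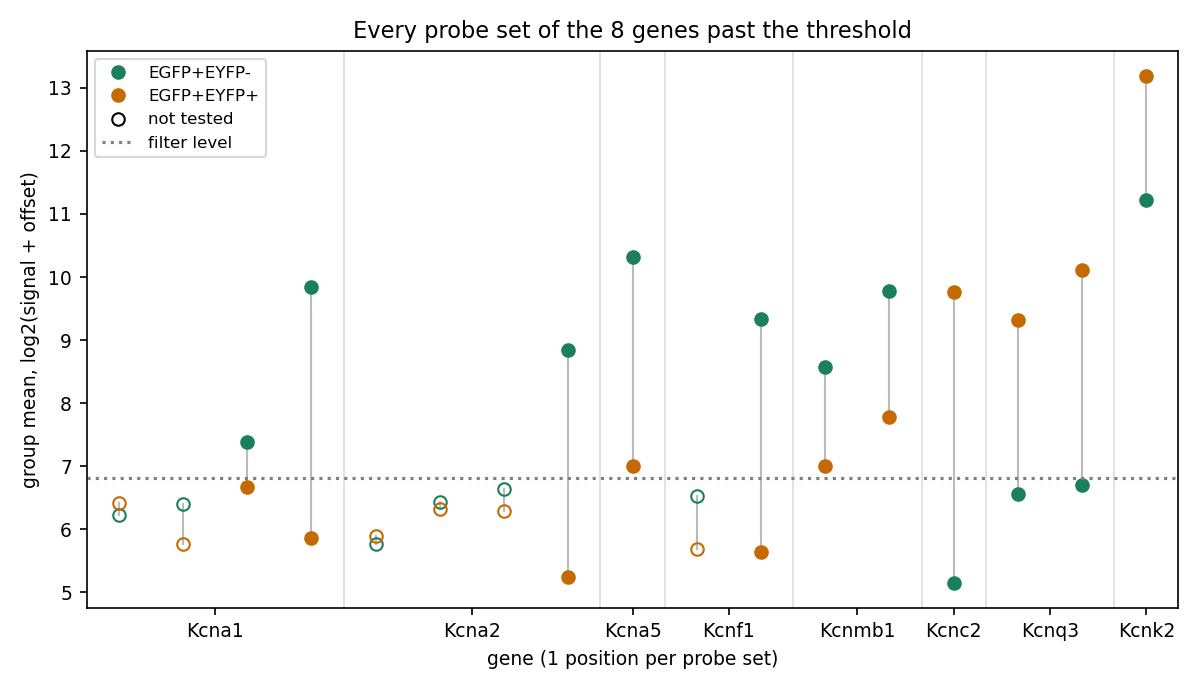
Group means, log2(signal + 25.042), of every probe set of the 8 called genes, 1 position per probe set; open circles were not tested and the dotted line is the filter level of 6.82. Kcna1 and Kcna2 each differ strongly on 1 of 4 probe sets, while both probe sets of Kcnq3 and of Kcnmb1 differ in 1 direction.

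A last class of symbols named transcripts antisense to a channel gene, with 8 probe sets of 3 genes and 4 tested. None passed with limma, and 0 had an unadjusted p under 0.05. Kcnq1ot1, the long noncoding RNA of an imprinted locus, gave 411, 4109 and 335 in single-positive and 2982, 3859 and 186 in double-positive arrays on 1441588_at. The range within each group exceeded any difference between them. Its other 2 tested probe sets had log2 fold changes of 0.63 and -0.33. Kcnmb4os2 had 0.79, and -0.25 without single-positive array 3.

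Where a gene had more than 1 tested probe set, these often differed in size and at times in sign. Of 16 such Kcn genes, 11 had values of 1 sign on all tested probe sets and 5 had both signs. The 93 untested members had signals between 0.44 and 371, and 8 of them had groups that did not overlap. In 3 of these the double-positive arrays lay above and in 5 below, beside 7.4% and 4.32% of all 18015 untested probe sets. Kcnmb1 overlaps Kcnip1 in the RefSeq gene table; the 2 tested Kcnip1 probe sets had log2 fold changes of -1.17 and 0.40, and neither passed.

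Genes that work with the channels were read on their brightest probe set. Of 16 tested partner genes (sulfonylurea receptors, accessory and anchoring proteins, pacemaker channels), 2 were lower and 14 did not pass, with a median of -0.17, beside 2.42% lower over all tested probe sets and 4.38% lower over genes with 1 probe set each. Akap5, an anchor that holds kinases and calcineurin near channels, fell, with 619 ± 39.6 in single-positive and 171 ± 21.4 in double-positive arrays (SD, n = 3), or -1.72 in log2 (adjusted p = 0.0344 by limma). Cav1, the coat protein of caveolae where BK channels gather, fell as well, with 63368 ± 6972 against 34918 ± 4605 (SD, n = 3), or -0.86 in log2 (adjusted p = 0.0131 by limma). With median centring 0 of the partner genes passed, and without single-positive array 2 also 0.

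No pump or cotransporter of potassium passed with limma among 12 tested (2 had an unadjusted p under 0.05), and their median was -0.18. Of the 18 tested genes of calcium handling (channels, release, pumps and their regulators), 3 fell and none rose. Their median was -0.49, beside the same 2.42% and 4.38% lower. They were P2rx1, the ATP receptor of detrusor (-3.98, SE 0.43, adjusted p = 0.00177 by limma), Ryr3, a calcium release channel (-3.69, SE 0.77, adjusted p = 0.0349), and Pln, the regulator of the calcium pump (-3.33, SE 0.51, adjusted p = 0.00836). Cacna1c, the pore of the L-type calcium channel, had -1.33 and did not pass (adjusted p = 0.0835 by limma).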

How the data were processed

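The authors' deposited table gives 1 linear signal intensity per probe set and array; per the labels' protocols RNA was amplified in 2 rounds, and the intensities came from GCOS, per the submitters' processing notes. Which algorithm and version it ran is not given in the sources used here. Each array had the same trimmed mean of 1500.01 (leaving out 2% at both ends), as scaled arrays do, and scaling hides differences in total RNA per cell. Amplification in 2 rounds favours sequence near the 3' end. No detection calls were used.

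Controls were dropped, 25.042 (the 20th percentile of all values) was added before log2, and probe sets with a mean above the 40th percentile were fitted with limma 3.58.1 in R 4.3.3 (lmFit, eBayes with a trend), with Benjamini-Hochberg adjustment over 27022 probe sets, two-sided. Genes in lists were read on their brightest probe set. Names follow the platform's annotation, and all 167 members matched a RefSeq gene by Entrez identifier. Motifs other than those reported were also looked at in the promoter windows. The procedure was tested on simulated data. Named members were those called, the brightest and the 2 of smallest p among those not called in each subfamily, and channels known from detrusor physiology; others were chosen after their values were seen. Members and lists were chosen with earlier results of these data known. Alternatives covered normalization, offset, filter, unit tested, variance model, array weights, a replicate block and fits without 1 array. The number of arrays limits the precision.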

Additional observations from a re-analysis of the deposited data

How the results depend on the processing

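The 3 higher channel probe sets numbered 2 to 4 and the 5 lower ones 1 to 8 over all settings. The higher count was 2 with a filter at the 60th percentile, for Kcnk2 and for Kcnmb4, which did not pass in the main fit. The lower count was 2 with a filter at the 60th percentile, which left Kcna1, Kcna2, Kcnf1, Kcnc2 and Kcnq3 (1458421_at) untested, and 8 with array weights, and leaving out 1 array gave 1 to 5 (2 without single-positive array 1 or 2, and 1 without array 3). Leaving out 1 array gave 3 to 4 higher. Over all probe sets the 272 higher became 163 with no variance trend and 483 with array weights, and 123 to 337 without 1 array. The 653 lower became 1156 with array weights and 262 to 784 without 1 array. The 2 partner genes became 0 with median centring, 1 with no filter, without shared-suffix probe sets or with no variance trend, 4 with array weights, and 0 to 2 without 1 array. Pumps and cotransporters had 1 call with array weights, and the 3 calcium genes became 7 (2 to 4 without 1 array). The causes were not tested. Whether replicate numbers pair the arrays could not be told from the values, since all correlations were weak. Deviations of same-numbered arrays correlated at 0.09, 0.03 and -0.07. Single-positive arrays 1 and 2 correlated best with the same-numbered double-positive array, and single-positive array 3 with double-positive array 2 (0.13). With the replicate block 4 channel probe sets were higher and 4 lower (276 and 621 over all probe sets); it changed the calls of Kcnq3 on 1435957_at (adjusted p = 0.0209 by limma) and of Kcnmb1 on 1421400_at (0.0533), and of no other named probe set. No called value changed sign under any setting run. Dim probe sets limit what could be tested, and signals under the offset set no firm size of a fold.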
